A study of Mus musculus with 20 samples.

Results

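Transcripts of 32 genes of the tricarboxylic acid (TCA) cycle, of itaconate synthesis and of anaplerosis were measured in mouse macrophages by RNA-seq. The 32 members were chosen by gene name, not by their values, though with earlier results of these data known. They cover the enzymes and subunits from citrate synthase to malate dehydrogenase, the itaconate enzyme Acod1, the enzymes that feed or drain the cycle, and the carriers of citrate, dicarboxylates and 2-oxoglutarate. All 32 were present among the 56748 genes of both count tables and all 32 passed the filter of at least 10 counts in total. In the libraries labelled BMDM the lowest count of a member was 16 (Sdhaf1) and the highest 225536 (Acod1).

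The study asked how nitric oxide made by inducible nitric oxide synthase (iNOS, the product of Nos2) and the reductase AKR1A1 shape macrophages after classical activation. In the first experiment, wildtype and iNOS KO cells were left unstimulated or stimulated for 48 h with lipopolysaccharide (LPS, 50 ng/mL) and interferon-γ (IFNγ), and every one of the 4 groups had 3 libraries. For these 12 libraries the labels name bone marrow-derived macrophages (BMDM) from C57BL/6J mice, 6 to 12 weeks old and of either sex, and give 30 ng/mL of IFNγ, whereas the methods of the study describe this experiment in the mouse macrophage line RAW264.7. The cell type of these libraries was therefore not settled by labels and methods, and they are called the libraries labelled BMDM. Levels of proliferation markers, which bear on the cell type, are given below. In the second experiment, wildtype and Akr1a1 KO RAW264.7 cells were unstimulated or stimulated for 48 h, here with IFNγ at 10 ng/mL beside LPS at 50 ng/mL, and each group had 2 libraries.

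For BMDM, the methods state that marrow was pooled by genotype and that iNOS KO mice carried the Nos2tm1Lau allele on a B6.129P2 background. BMDM were kept in M-CSF (20 ng/mL). Akr1a1 KO cells were clones made with CRISPR-Cas9, and the methods give 2 independent clonal replicates for each group. For replicate B of both unstimulated RAW264.7 groups the sample title reads stimulated, and the treatment field and the library name, which read unstimulated, were followed. Separate animals are not named for any library, so the p-values measure only the spread between these libraries.

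In the TCA cycle, mitochondria oxidise acetyl units to carbon dioxide through citrate, isocitrate, 2-oxoglutarate, succinate, fumarate and malate, and pass electrons to the respiratory chain. Anaplerotic reactions refill the cycle from pyruvate and glutamate, and carriers of the inner membrane move its intermediates to the cytosol. In classically activated macrophages ACOD1 converts the intermediate cis-aconitate to itaconate, which inhibits succinate dehydrogenase, and a remodelled cycle is a known feature of these cells.

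Total counts per library lay between 15072109 and 18878107 for BMDM labels and between 11876719 and 44583327 for RAW264.7 cells. Nos2 was at 10370.2, 11533 and 11312 CPM (counts scaled to the TMM-adjusted library size) in stimulated wildtype libraries and at 870.5, 891 and 912 CPM in stimulated iNOS KO libraries, with 0 counts in the 3 unstimulated iNOS KO libraries. Akr1a1, counted over the whole gene, was at 427 and 488 CPM in unstimulated and 576 and 675 CPM in stimulated wildtype RAW264.7 cells, against 206 and 21.8 CPM and 370.4 and 212 CPM in the Akr1a1 KO clones. Between genotypes Akr1a1 was not called before (adjusted p = 0.56) or after stimulation (adjusted p = 0.643), and a count over the whole gene does not check a small edit. Summed over 9 macrophage markers, the libraries labelled BMDM held 8336 to 8685 CPM in unstimulated and 8150 to 9137 CPM in stimulated wildtype cells, and 5893 to 6303 and 12729 to 13565 CPM in the same iNOS KO groups, against 3420 to 12440 CPM in RAW264.7 cells. Ly6g and Ltf of neutrophils, Cd3d and Cd8a of T cells and Col3a1 of fibroblasts were at 0 in every library labelled BMDM, where the lists of these cell types summed to at most 64.6, 0.416 and 16.4 CPM. In RAW264.7 cells the neutrophil list summed to at most 0.623 CPM unstimulated and to between 121 and 420.0 CPM stimulated, nearly all of it S100a8, which activated macrophages also make, and the part of these markers in the results was not tested. Stimulated iNOS KO replicate B stood apart from its 2 replicates: the chi-square of the counts divided by its degrees of freedom was 28.8 and 36.8 for the pairs with B, and 2.65 to 7.74 for all other replicate pairs of these 12 libraries. Calls on members that change without this library are named with the comparison.

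Stimulation of wildtype cells lowered most of the cycle and raised the gene for itaconate synthesis in the libraries labelled BMDM. Of the 32 members, 4 were higher, 20 were lower and 8 were not called, where a gene was called at an adjusted p under 0.05 in the quasi-likelihood test of edgeR, adjusted by Benjamini-Hochberg over all 18691 genes tested. The same rule called 32.4% of all genes tested higher and 28.5% lower. The median log2 fold change, stimulated minus unstimulated, was -0.49 over the members and 0.07 over all genes tested. Stimulated and unstimulated libraries did not overlap for 27 of the 32 members, and overlap was not counted over all genes in any comparison. Bulk RNA cannot tell fewer cells of a type from less RNA per cell. Genes of proliferating cells fell in the same comparison: all 12 markers of proliferation (Mki67, Top2a, Cdk1 and others) were lower, and their summed level was 2525 to 2591 CPM in unstimulated and 73.6 to 82.2 CPM in stimulated wildtype libraries. The part of proliferation in the members' values was not tested.

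Acod1, the enzyme that makes itaconate from cis-aconitate, was the member with the largest change. Its level was 221, 215 and 216 CPM in the 3 unstimulated wildtype libraries and 14466, 15228 and 15411 CPM in the 3 stimulated ones. The groups lay far apart, and the level was 69.2 times as high after stimulation, a log2 fold change of 6.11 (SE 0.06, adjusted p = 1.29e-19). Per kilobase of gene length, Acod1 stood at 82.8 CPM per kb before stimulation, next to 73.5 CPM per kb for Cs, and at 5732 CPM per kb after it. Cs, citrate synthase, which condenses acetyl-CoA with oxaloacetate at the entry of the cycle, spanned 406 to 435 CPM unstimulated against 205 to 225 CPM stimulated, a log2 fold change of -0.96 (SE 0.07, adjusted p = 2.29e-09).

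All 5 isocitrate dehydrogenase genes were called lower, but by very different amounts. Idh2, the mitochondrial NADP-dependent enzyme, was the member that fell most. It measured 151, 149 and 156 CPM in unstimulated and 18.0, 17.7 and 16.8 CPM in stimulated wildtype libraries, a log2 fold change of -3.12 (SE 0.09, adjusted p = 7.60e-15). Stimulated libraries kept 11.5% of the unstimulated level by the fitted value. Among the subunits of the mitochondrial NAD-dependent enzyme, the catalytic subunit gene Idh3a measured 162, 159.8 and 163 CPM before and 43.2, 46.5 and 44.6 CPM after stimulation, a log2 fold change of -1.85 (SE 0.07, adjusted p = 1.73e-13). Idh3g, one of its regulatory subunits, went from 136, 137 and 142 to 51.5, 53.8 and 54.4 CPM, a log2 fold change of -1.38 (SE 0.08, adjusted p = 8.80e-11). In both genes every stimulated library lay below every unstimulated one. Idh3b, the other non-catalytic subunit of the same complex, was at 137 to 147 CPM against 154 to 172 CPM, a log2 fold change of -0.18 (SE 0.07, adjusted p = 0.0302). That call was lost without unstimulated wildtype replicate A or C (adjusted p = 0.0575 and 0.14) and without stimulated wildtype replicate A or B (0.0941 and 0.0664). Idh1, the cytosolic NADP-dependent enzyme, fell by 0.66 on the log2 scale (SE 0.09, adjusted p = 5.00e-06).

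The middle of the cycle split between subunits. Ogdh and Dlst encode the first and second components of the 2-oxoglutarate dehydrogenase complex, and the log2 fold change was -0.19 (SE 0.07, adjusted p = 0.0404) for Ogdh and 0.29 (SE 0.06, adjusted p = 7.31e-04) for Dlst. The call on Ogdh was lost with DESeq2 (adjusted p = 0.0694), without unstimulated wildtype replicate A or C (0.0930 and 0.128), without stimulated wildtype replicate A or C (0.149 and 0.0504) and without unstimulated iNOS KO replicate C (0.0538). Succinyl-CoA synthetase pairs the shared subunit SUCLG1 with either the GTP-forming subunit SUCLG2 or the ATP-forming subunit SUCLA2. Suclg2 measured 73.8, 73.9 and 73.8 CPM in unstimulated and 14.3, 13.6 and 12.5 CPM in stimulated wildtype libraries, a log2 fold change of -2.45 (SE 0.09, adjusted p = 1.36e-13), the second largest fall among the members. The libraries of a group were close to each other and the groups did not overlap. Suclg1 fell by 0.63 on the log2 scale (SE 0.08, adjusted p = 2.28e-06), and Sucla2 was not called at -0.30 (95% interval -0.66 to 0.07). Without stimulated iNOS KO replicate B, Sucla2 had the same log2 fold change, -0.30, and was called at an adjusted p of 0.00294.

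The 6 genes of succinate dehydrogenase, the enzyme that links the cycle to the respiratory chain, and its assembly had a median log2 fold change of 0.01, with 2 called higher and 1 lower. Sdha, the flavoprotein subunit, spanned 276 to 294 CPM unstimulated against 186 to 192 CPM stimulated, a log2 fold change of -0.60 (SE 0.06, adjusted p = 5.30e-08). For Sdhb, the iron-sulfur subunit, the difference was -0.04 (95% interval -0.19 to 0.11), and for the membrane anchor Sdhc it was 0.06 (95% interval -0.09 to 0.21). The other anchor, Sdhd, was called higher at 0.32 (SE 0.07, adjusted p = 9.45e-04). Of the assembly factors, Sdhaf2, which assists the insertion of the flavin into SDHA, spanned 31.9 to 32.8 CPM unstimulated against 56.0 to 67.1 CPM stimulated at 0.93 (SE 0.08, adjusted p = 1.25e-08). Sdhaf1, an assembly factor of the iron-sulfur subunit, was the lowest member at 4.24, 4.17 and 3.64 CPM before and 2.84, 2.77 and 3.61 CPM after stimulation, and was not called at -0.39 (95% interval -0.81 to 0.03).

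The steps from fumarate to oxaloacetate were lower throughout. Fh1, fumarase, which works in mitochondria and cytosol, measured 139, 137 and 139 CPM unstimulated and 38.1, 43.5 and 45.4 CPM stimulated, a log2 fold change of -1.71 (SE 0.07, adjusted p = 1.66e-12). Mdh1, the cytosolic malate dehydrogenase, went from 224, 226 and 229 to 83.7, 95.4 and 98.0 CPM at -1.29 (SE 0.07, adjusted p = 1.96e-11). Neither gene had overlapping groups. Mdh2, the mitochondrial malate dehydrogenase, changed by only -0.21 (SE 0.06, adjusted p = 0.00619).

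Among the genes that feed or drain the cycle, the mitochondrial isoforms of malic enzyme and of aspartate aminotransferase had larger falls than their cytosolic counterparts. Pck2, mitochondrial phosphoenolpyruvate carboxykinase, measured 64.1, 61.1 and 60.7 CPM unstimulated and 15.4, 18.2 and 13.0 CPM stimulated, a log2 fold change of -1.99 (SE 0.13, adjusted p = 5.47e-10). Its stimulated libraries held about 25.1% of the unstimulated level and the groups did not overlap. Me2, the mitochondrial malic enzyme, fell by 0.82 on the log2 scale (adjusted p = 8.83e-09), while its cytosolic counterpart Me1 differed by -0.01 (95% interval -0.16 to 0.14). Got2, the mitochondrial aspartate aminotransferase of the malate-aspartate shuttle, went from 336, 318 and 341 to 139, 151 and 153 CPM at -1.17 (SE 0.08, adjusted p = 5.39e-10), and the cytosolic Got1 fell by 0.35 (adjusted p = 0.00172). Glud1, glutamate dehydrogenase, was lower at -0.66 (SE 0.06, adjusted p = 7.90e-08). Pyruvate carboxylase, Pcx, which makes oxaloacetate from pyruvate, differed by 0.08 (95% interval -0.23 to 0.39) and its groups overlapped.

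The carriers also split. Slc25a1, the citrate carrier, measured 83.4, 79.3 and 84.2 CPM unstimulated and 39.4, 46.2 and 50.0 CPM stimulated at -0.87 (SE 0.09, adjusted p = 4.13e-07). Slc25a10, the dicarboxylate carrier that exchanges malate and succinate for phosphate, went from 65.3, 62.9 and 74.3 to 33.2, 33.8 and 33.6 CPM at -1.01 (SE 0.09, adjusted p = 6.08e-08). In both carriers every stimulated wildtype library was below every unstimulated one. Slc25a11, the 2-oxoglutarate/malate carrier, differed by 0.02 (95% interval -0.14 to 0.17), and Acly, which cleaves exported citrate in the cytosol, by -0.08 (95% interval -0.20 to 0.04). Of the 26 members whose products work in mitochondria alone, 4 were higher and 16 lower, and of the 5 cytosolic members 0 were higher and 3 lower.

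**Figure D1:**
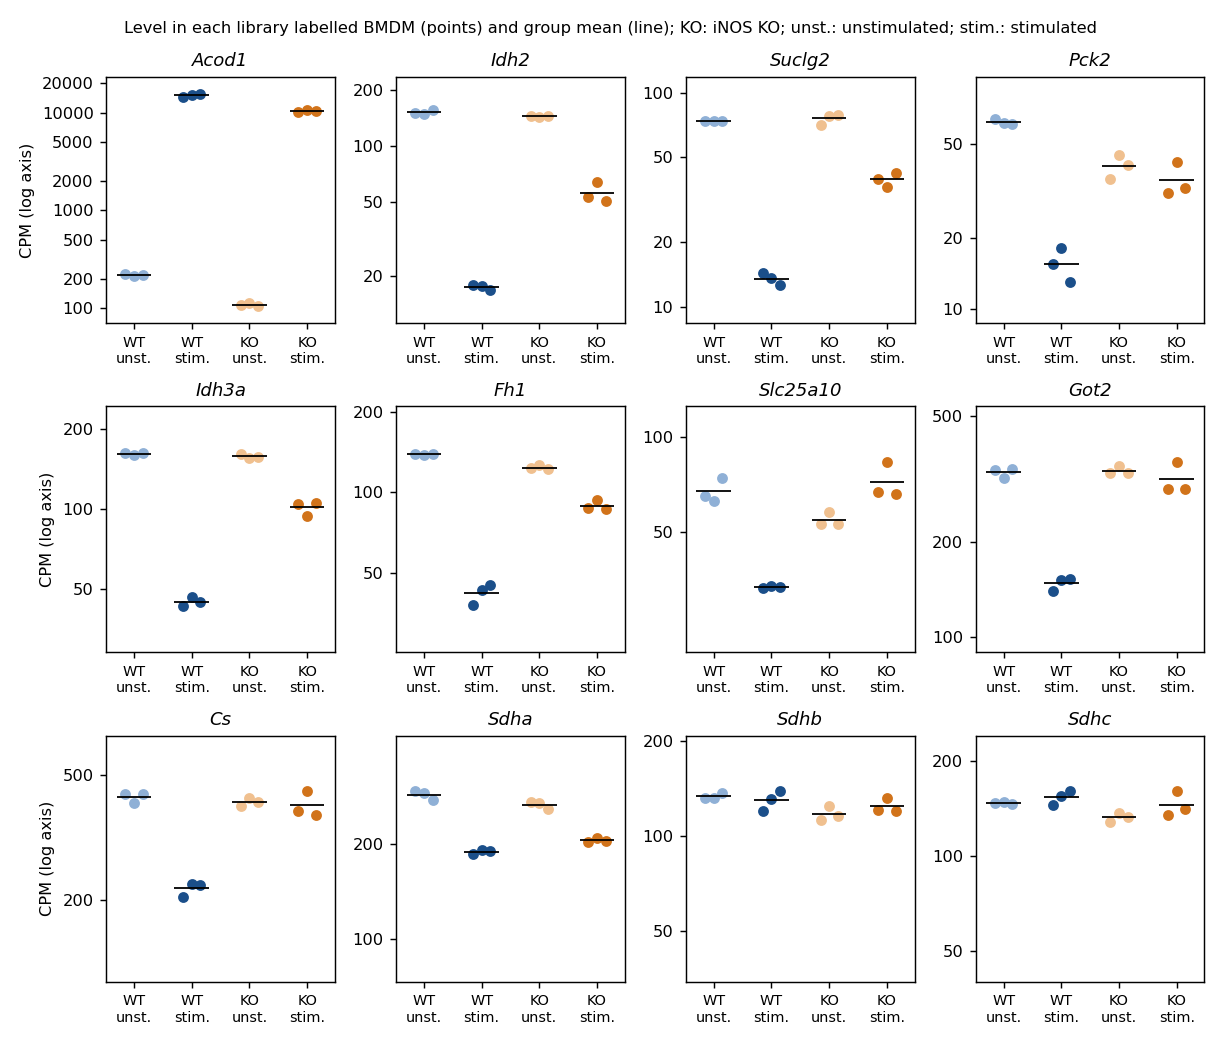
Levels in CPM (log axis) of 12 members in each of the 12 libraries labelled BMDM, with points for libraries and a line for the mean of 3 libraries per group. Acod1 rises in both genotypes, Idh2, Suclg2, Pck2 and Fh1 drop in stimulated wildtype cells and less in stimulated iNOS KO cells, and the points of Sdhb and Sdhc overlap between unstimulated and stimulated wildtype cells.

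The 250 bases before the transcription start are shown for the member that rose most and for the 3 that fell most in this comparison, from RefSeq on GRCm38.p6. Entries were found for 29 of the 32 members (Me2, Idh3a and Sdhc had none). Capitals mark matches to 4 of 5 motifs searched on both strands: an ISRE-type motif of interferon-regulated genes (GAAANNGAA), a kB-type motif of NF-kB (GGANNTTCC), an ARE-type motif of NRF2 (TGACNNNGC) and an ATF4-type motif (TGATGNAA). The 4 sequences follow from 5′ to 3′ on the strand of the gene, at chr14:103046762-103047011, + strand for Acod1, at chr7:80115351-80115600, - strand for Idh2, at chr6:95718847-95719096, - strand for Suclg2 and at chr14:55540016-55540265, + strand for Pck2.
Acod1: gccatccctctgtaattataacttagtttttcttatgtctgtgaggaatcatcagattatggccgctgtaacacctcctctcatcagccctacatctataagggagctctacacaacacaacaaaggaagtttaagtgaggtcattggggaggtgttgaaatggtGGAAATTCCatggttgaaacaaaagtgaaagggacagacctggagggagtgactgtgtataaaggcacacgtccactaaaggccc
Idh2: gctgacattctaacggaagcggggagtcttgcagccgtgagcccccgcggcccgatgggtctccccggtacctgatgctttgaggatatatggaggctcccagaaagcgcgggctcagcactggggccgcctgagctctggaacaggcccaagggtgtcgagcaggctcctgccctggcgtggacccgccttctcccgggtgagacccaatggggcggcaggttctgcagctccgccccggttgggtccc
Suclg2: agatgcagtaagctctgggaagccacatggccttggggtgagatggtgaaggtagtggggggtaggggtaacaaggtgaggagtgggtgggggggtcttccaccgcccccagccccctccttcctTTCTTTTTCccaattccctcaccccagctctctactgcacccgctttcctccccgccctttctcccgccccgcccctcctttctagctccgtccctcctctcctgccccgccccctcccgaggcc
Pck2: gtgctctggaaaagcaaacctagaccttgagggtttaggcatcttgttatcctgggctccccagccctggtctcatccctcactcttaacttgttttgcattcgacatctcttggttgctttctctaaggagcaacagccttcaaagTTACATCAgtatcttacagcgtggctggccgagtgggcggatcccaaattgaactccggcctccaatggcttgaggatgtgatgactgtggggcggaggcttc
The Acod1 window held 1 kB-type match from 85 to 77 bases before the start, which Idh1 also had, against 3.59% of all 32851 promoters of this length. The Suclg2 window held an ISRE-type match 125 to 117 bases before the start, shared with Suclg1 and found in 7.13% of promoters. In Pck2 an ATF4-type match lay 103 to 96 bases before the start, and Got1 had the only other one among the members (3.45% of promoters). None of these motifs was in the Idh2 window. The ARE-type motif was held by 4 members, Dlst, Sucla2, Sdhaf2 and Idh3g (10.2% of promoters). In the 4 windows shown, no match overlapped another. These matches are letters in a window and were not tested as sites.

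Whether these changes needed iNOS was asked with iNOS KO cells under the same stimulation. There 8 of the 32 members were higher, 13 lower and 11 not called, against 27.3% higher and 24.6% lower of all genes tested, and the median log2 fold change was -0.06 over the members and 0.00 over all genes. The 8 that were higher were Acod1, Idh3b, Dlst, Sdhd, Sdhaf2, Pcx, Me1 and Slc25a10. Groups did not overlap for 22 of the 32 members, with no count over all genes beside it. Acod1 went from 107, 112 and 105 to 10266, 10746 and 10482 CPM, without overlap, at 6.60 (SE 0.06, adjusted p = 5.58e-20). The response in iNOS KO cells minus that in wildtype cells, tested as the interaction of genotype and stimulation, was above 0 for 18 members, below 0 for 2 and not called for 12. Of all genes tested, 20.0% were called above 0 and 15.4% below. The median of this difference was 0.42 over the members and -0.02 over all genes. Of the 20 members that fell in wildtype cells, 17 had a called interaction above 0, 11 were still called lower in iNOS KO cells, 7 were not called there and 2 (Idh3b and Slc25a10) were called higher. Sucla2 and Sdhaf1 made up the 13 lower in iNOS KO cells, at -0.54 (SE 0.17, adjusted p = 0.0139) and -1.21 (SE 0.22, adjusted p = 2.02e-04). The value of Sucla2 rested in part on stimulated iNOS KO replicate B: it was -0.30 (adjusted p = 0.00713) without B, and with all libraries the call was lost when only the groups compared were fitted (adjusted p = 0.0582). The interaction was not called for the other 3, Idh1, Ogdh and Got1. Without stimulated iNOS KO replicate B it was called for Idh1 (0.31, adjusted p = 0.00479) and Me1 (0.25, adjusted p = 0.0258), Suclg1 was called lower in iNOS KO cells (-0.17, adjusted p = 0.0323) and the call on Idh3b was lost (0.13, adjusted p = 0.0639). Leaving out other single libraries also ended calls in iNOS KO cells on Glud1 (adjusted p up to 0.122, without unstimulated replicate C), Me2 (up to 0.103, without stimulated replicate A) and Sdhd (0.0504, without unstimulated replicate A). The call on Idh3b was also lost without unstimulated iNOS KO replicate A, B or C (adjusted p = 0.0580, 0.0568 and 0.0590). It was lost as well without stimulated wildtype replicate C (0.0622) and when only the groups compared were fitted (0.0609).

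The largest differences in response were in Pck2, Idh2 and Suclg2. Pck2 measured 35.6, 44.8 and 40.5 CPM in unstimulated and 31.0, 42.0 and 32.4 CPM in stimulated iNOS KO libraries. These groups overlapped, the response was -0.20 (adjusted p = 0.187), and the interaction was 1.79 (SE 0.18, adjusted p = 5.39e-07). Without stimulated iNOS KO replicate B, Pck2 was called lower in iNOS KO cells, at -0.35 (adjusted p = 0.00308).

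Idh2 measured 145, 144 and 145 CPM unstimulated and 52.9, 64.2 and 50.9 CPM stimulated in iNOS KO cells, a log2 fold change of -1.37 (SE 0.08, adjusted p = 2.14e-10). It fell in both genotypes, and the interaction was 1.75 (SE 0.12, adjusted p = 3.96e-09). Suclg2 measured 70.7, 78.3 and 79.2 CPM and 39.7, 36.3 and 42.4 CPM in the same groups, with a response of -0.95 (SE 0.08, adjusted p = 2.18e-08) and an interaction of 1.50 (SE 0.11, adjusted p = 2.16e-08). For both genes, stimulated iNOS KO libraries lay between unstimulated iNOS KO and stimulated wildtype libraries.

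Idh3a, Fh1, Idh3g and Mdh1 showed the same order. In iNOS KO cells Idh3a went from 162, 156 and 157 to 105, 94.6 and 105 CPM, and its interaction was 1.21 (SE 0.09, adjusted p = 1.60e-08). Fh1 went from 123, 126 and 122 to 87.4, 93.9 and 86.5 CPM with an interaction of 1.24 (SE 0.10, adjusted p = 4.00e-08). All 4 fell in iNOS KO cells, by 0.47 (Fh1) to 0.64 (Idh3a and Mdh1) on the log2 scale. Idh3g went from 126, 137 and 126 to 75.6, 93.9 and 81.6 CPM with an interaction of 0.75 (SE 0.11, adjusted p = 3.88e-05). Mdh1 went from 215, 208 and 212 to 136, 139.7 and 133 CPM with an interaction of 0.65 (SE 0.09, adjusted p = 2.47e-05). Each of these 4 genes had all stimulated iNOS KO libraries above all stimulated wildtype libraries.

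For Cs, Got2 and both citrate and dicarboxylate carriers, no fall was called in iNOS KO cells. Got2 measured 329, 348 and 329 CPM unstimulated and 294, 357 and 294 CPM stimulated, a response of -0.09 (95% interval -0.25 to 0.07) and an interaction of 1.08 (SE 0.11, adjusted p = 4.95e-07). Without replicate B of the stimulated group, Got2 was called lower in iNOS KO cells at -0.19 (adjusted p = 0.00530). Cs changed by -0.03 (95% interval -0.18 to 0.11) in iNOS KO cells and had an interaction of 0.93 (SE 0.10, adjusted p = 1.11e-06). Slc25a1 measured 64.3, 71.5 and 69.5 CPM and 67.0, 81.8 and 68.5 CPM, a response of 0.08 (95% interval -0.11 to 0.28) with an interaction of 0.95 (SE 0.13, adjusted p = 2.31e-05). Slc25a10 rose in iNOS KO cells, from 53.1, 57.8 and 53.2 to 67.2, 83.4 and 66.2 CPM at 0.40 (SE 0.09, adjusted p = 0.00139), where it fell in wildtype cells, and the interaction was 1.41 (SE 0.13, adjusted p = 2.49e-07).

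Smaller differences in response above 0 were called for Me2 (0.65), Suclg1 (0.55), Glud1 (0.49), Acod1 (0.49), Idh3b (0.39), Mdh2 (0.34) and Sdha (0.22). The rise of Acod1 was larger in iNOS KO cells, from a lower unstimulated level (-1.01 against wildtype). The call on Sdha was lost with DESeq2's size factors (adjusted p = 0.0706) and held in only 4 of 12 fits that each left out 1 library, with adjusted p up to 0.1 (without unstimulated iNOS KO replicate C). Both assembly factors went the other way. Sdhaf1 measured 3.32, 3.43 and 4.05 CPM unstimulated and 1.03, 1.51 and 2.09 CPM stimulated in iNOS KO cells, with an interaction of -0.82 (SE 0.30, adjusted p = 0.044), and Sdhaf2 had an interaction of -0.36 (SE 0.11, adjusted p = 0.0151). The call on Sdhaf1 held in only 2 of 12 fits that each left out 1 library, with an adjusted p of 0.0505 without stimulated iNOS KO replicate B and up to 0.132 without stimulated wildtype replicate C. The call on Sdhaf2 was lost without stimulated wildtype replicate C, at -0.27 (adjusted p = 0.0860). The low level of Sdhaf1, down to 16 counts in a library, limits its precision.

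**Figure D2:**
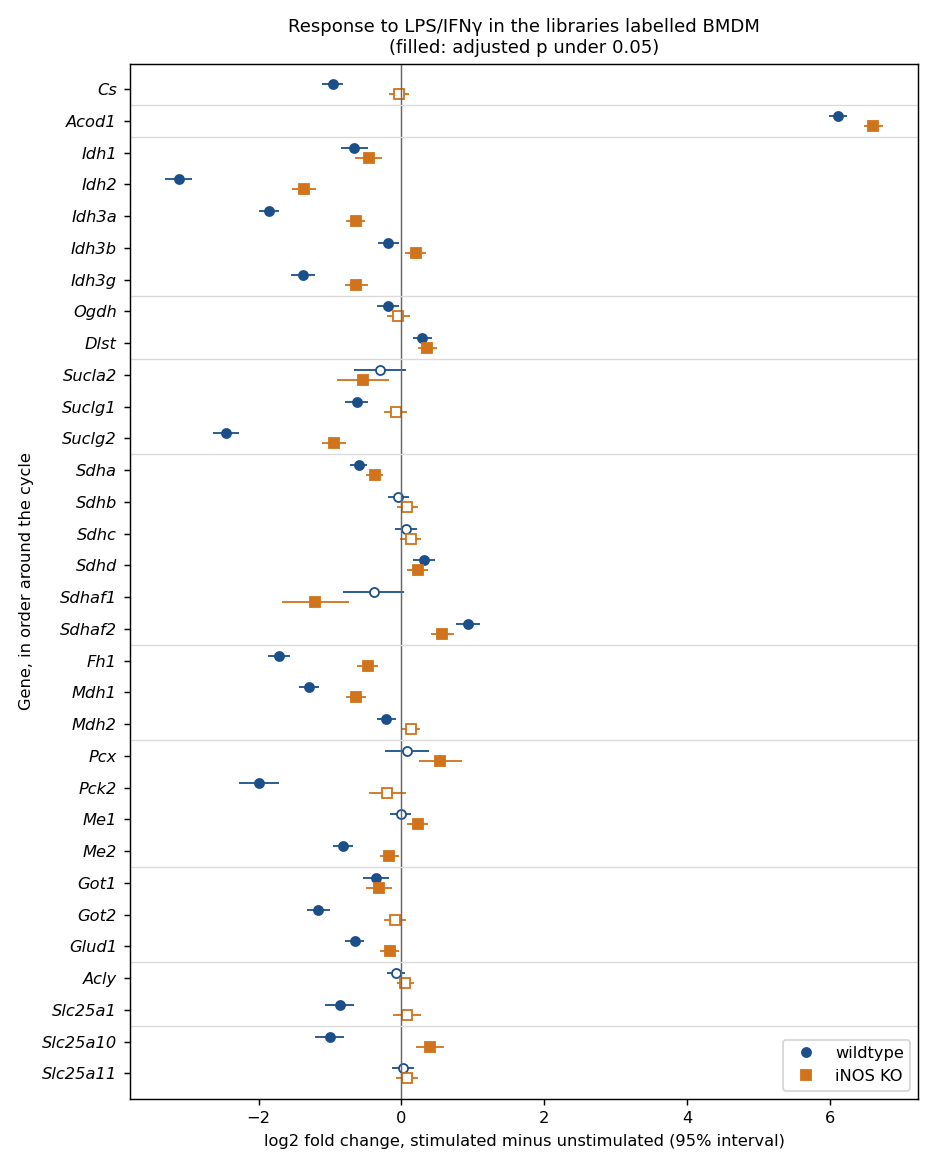
Log2 fold change, stimulated minus unstimulated, of the 32 members in the libraries labelled BMDM (3 libraries per group), for wildtype (circles) and iNOS KO cells (squares), with lines for 95% intervals of edgeR's fit and filled symbols for an adjusted p under 0.05. Idh2, Suclg2, Pck2, Idh3a and Fh1 lie between -3.12 and -1.71 in wildtype and between -1.37 and -0.20 in iNOS KO cells, while Sdhb and Sdhc lie near 0 in both.

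Compared directly after stimulation, 18 of the 32 members were higher in iNOS KO than in wildtype cells, 3 were lower and 11 were not called. Of all genes tested 24.2% were called higher and 24.2% lower, and the median log2 fold change was 0.34 over the members and -0.04 over all genes. Idh2 was 3.20 times as high in iNOS KO cells, a log2 fold change of 1.68 (SE 0.09, adjusted p = 8.19e-11), and Suclg2 was 2.92 times as high at 1.55 (SE 0.09, adjusted p = 2.00e-10). Next came Idh3a at 1.18 (SE 0.07, adjusted p = 1.87e-10), Pck2 at 1.17 (SE 0.13, adjusted p = 1.19e-06), Slc25a10 at 1.10 (SE 0.09, adjusted p = 4.15e-08), Got2 at 1.09 (SE 0.08, adjusted p = 3.17e-09) and Fh1 at 1.08 (SE 0.07, adjusted p = 2.00e-09). In these 7 genes every iNOS KO library was above every wildtype library. Here 22 of the 32 members had no overlap, and overlap was not counted over all genes. Cs was higher by 0.87, Slc25a1 by 0.68 and Idh3g by 0.65 on the log2 scale.

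Pcx, Pck2, Me1 and Me2, which were grouped as enzymes that feed or drain the cycle, were all higher in stimulated iNOS KO cells. Pcx was at 0.54 (SE 0.14, adjusted p = 0.00484) and Me1 at 0.53 (SE 0.07, adjusted p = 7.17e-06), and neither was called in wildtype cells on stimulation. Lrfn4, which overlaps Pcx on the opposite strand, was also higher here, at 1.75 (adjusted p = 4.77e-07). The 3 members that were lower were Acod1, Sdhaf1 and Sdhaf2. Acod1 measured 10266, 10746 and 10482 CPM in stimulated iNOS KO libraries, below all 3 stimulated wildtype libraries, at -0.52 (SE 0.05, adjusted p = 1.12e-07). Sdhaf1 was lower by 0.98 (adjusted p = 0.00232) and Sdhaf2 by 0.22 (adjusted p = 0.0228). The call on Sdhaf2 was lost without stimulated wildtype replicate C (-0.10, adjusted p = 0.386) or stimulated iNOS KO replicate C (-0.21, adjusted p = 0.0621). None of the 4 subunit genes of succinate dehydrogenase was called, with Sdha at 0.12 (95% interval 0.00 to 0.24) and Sdhb at -0.06 (95% interval -0.21 to 0.09). Without stimulated iNOS KO replicate B, Sdhc (-0.16), Sdhd (-0.22), Got1 (-0.31) and Slc25a11 (-0.26) were also called lower. With all libraries these genes were at -0.08, -0.15, -0.20 and -0.17 and were not called. Rnf167, which overlaps Slc25a11 on the opposite strand, was at -1.22 in this comparison with all libraries (adjusted p = 1.55e-07). Proliferation markers stood in the same order as many members: all 12 were higher in iNOS KO cells, and their summed level was 1421 to 1671 CPM, against 2510 to 2677 CPM in unstimulated iNOS KO cells. Their part in the differences was not tested. The paper describes BMDM as non-proliferating in either genotype, stimulated or not, and RAW264.7 proliferation as inhibited by the nitric oxide made on stimulation. In wildtype libraries labelled BMDM the proliferation markers summed to 2525 to 2591 CPM unstimulated and 73.6 to 82.2 CPM stimulated. Wildtype RAW264.7 cells held 3910 to 4625 CPM and 69.4 to 95.7 CPM. Whether these levels identify the cell type was not tested.

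Before stimulation the genotypes were much closer. Of the 32 members 1 was higher in iNOS KO cells, 3 were lower and 28 were not called, against 1.88% higher and 4.09% lower of all genes tested. The median log2 fold change was -0.14 over the members and -0.01 over all genes. Acod1 measured 107, 112 and 105 CPM in unstimulated iNOS KO libraries, about 49.7% of the wildtype level and without overlap, at -1.01 (SE 0.05, adjusted p = 2.95e-09). In this comparison 22 of the 32 members had no overlap, though 28 were not called, and overlap was not counted over all genes. Of the 9 macrophage markers 5 were lower and 0 higher in the same comparison, with a median of -0.53 on the log2 scale, and their part in the result was not tested. Pck2 was lower at -0.62 (SE 0.12, adjusted p = 0.00362) and Idh1 at -0.32 (SE 0.09, adjusted p = 0.0375), and Me1 was higher at 0.29 (SE 0.07, adjusted p = 0.0175). The call on Idh1 held in 3 of 12 fits that each left out 1 library and reached an adjusted p of 0.164 without unstimulated wildtype replicate B. The call on Me1 was lost without unstimulated wildtype replicate A or B (adjusted p = 0.0824 and 0.103) and without unstimulated iNOS KO replicate B or C (0.0713 and 0.0828). The count also moved with a library of another group that shares the estimate of spread: without stimulated iNOS KO replicate B, 1 member was called higher and 10 lower. Newly called lower were Sdhb, Fh1, Got1, Acly, Slc25a1, Slc25a10 and Slc25a11. Their log2 fold changes lay between -0.30 and -0.14 both with and without that library.

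Ratios between members of 1 enzyme step or of neighbouring steps were taken within each library, with both levels per kilobase of gene length. Suclg2 over Sucla2, the GTP-forming over the ATP-forming subunit, was 1.10 to 1.33 in unstimulated wildtype, 0.244 to 0.303 in stimulated wildtype, 1.02 to 1.32 in unstimulated iNOS KO and 0.728 to 1.27 in stimulated iNOS KO libraries. The upper end of the last range was replicate B, and the other 2 libraries of that group were at 0.728 and 0.836, below the unstimulated iNOS KO libraries. Fh1 over Sdhb was 0.673 to 0.696, 0.210 to 0.220, 0.670 to 0.724 and 0.470 to 0.480 in the same groups. Idh2 over Idh3b was 1.20 to 1.28, 0.150 to 0.174, 1.29 to 1.30 and 0.418 to 0.458. All 3 ratios were lower in every stimulated than in every unstimulated wildtype library. An exact permutation test (2-sided) with 3 libraries per group cannot give a p below 0.1, and for these differences on the log2 scale p was 0.1 (0.225 after adjustment over 18 ratio comparisons).

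Genes around the cycle were read from a wider list. Of 48 further genes of pyruvate oxidation, glutamine use and related carriers, 40 were tested, and on stimulation of wildtype cells 5 were higher and 22 lower (median -0.45 on the log2 scale). Those that changed most among the called were Slc1a5, a glutamine transporter, which went from 401, 392 and 411 to 82.5, 89.9 and 93.5 CPM at -2.18 (SE 0.07, adjusted p = 8.15e-14), Pdp2, a phosphatase that activates pyruvate dehydrogenase, at -2.78 (SE 0.12, adjusted p = 2.80e-12), and Sugct and Acss1, which stayed at or below 1.39 CPM in all wildtype libraries. In iNOS KO cells 7 were higher and 19 lower, with the kinase gene Pdk1 at -1.60 (SE 0.07, adjusted p = 8.91e-12) and the phosphatase gene Pdp1 at 1.44 (SE 0.15, adjusted p = 5.02e-07) among the largest. The interaction was above 0 for 16 and below for 5 of the 40, and Slc1a5 had an interaction of 1.90 (SE 0.10, adjusted p = 2.23e-10). After stimulation 17 were higher and 9 lower in iNOS KO than in wildtype cells, and before stimulation 0 were higher and 1 lower (Acss2, at -0.70).

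LPS and IFNγ were also given to wildtype RAW264.7 cells in the second experiment, which shares no libraries with the first. There 2 members were higher, 22 lower and 8 not called, against 18.5% higher and 19.2% lower of 19569 genes tested. The median log2 fold change was -0.84 over the members and -0.03 over all genes. Acod1 measured 35.8 and 54.9 CPM unstimulated and 5844 and 6217 CPM stimulated, a log2 fold change of 7.05 (SE 0.30, adjusted p = 2.53e-06). Of the members called lower, 18 were called lower in both experiments, which is 90.0% of the 20 in the libraries labelled BMDM and 81.8% of the 22 in RAW264.7 cells. The share called lower in both was not computed over all genes, so these shares have no background beside them. With DESeq2, the call on Ogdh was lost in the libraries labelled BMDM (adjusted p = 0.0694) and that on Glud1 in RAW264.7 cells (0.0606). Proliferation markers fell here too, with all 12 lower and a summed level of 3910 to 4625 CPM unstimulated and 69.4 to 95.7 CPM stimulated.

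Idh2 had the largest fall in RAW264.7 cells too, where it measured 171 and 147 CPM unstimulated and 15.6 and 9.34 CPM stimulated at -3.68 (SE 0.24, adjusted p = 1.36e-05). Slc25a10 went from 83.0 and 102 to 12.8 and 12.6 CPM at -2.86 (SE 0.18, adjusted p = 1.22e-05). Pcx went from 41.8 and 36.6 to 9.52 and 7.94 CPM at -2.17 (SE 0.26, adjusted p = 3.45e-04), where it was not called in the libraries labelled BMDM (0.08). Every stimulated library of these 3 genes lay below every unstimulated one. Between these groups 31 of the 32 members had no overlap, a count without a background over all genes. Suclg2 went from 121 and 119 to 37.0 and 31.4 CPM at -1.81 (SE 0.13, adjusted p = 1.97e-05), and Mdh1 from 311 and 291 to 92.6 and 62.0 CPM at -1.96 (SE 0.19, adjusted p = 9.93e-05). Fh1 fell by 2.06 on the log2 scale (adjusted p = 7.68e-06).

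Of the 6 succinate dehydrogenase and assembly genes, 3 were lower and 3 were not called, with Sdha at -1.44 (SE 0.15, adjusted p = 1.93e-04). Sdhd was the only member called in opposite directions, at -0.47 in RAW264.7 cells (adjusted p = 0.0128) and 0.32 in the libraries labelled BMDM. In RAW264.7 cells that call was lost without unstimulated wildtype replicate B (-0.45, adjusted p = 0.0708) or stimulated wildtype replicate B (-0.34, adjusted p = 0.0745). Slc25a11 was the other member called higher besides Acod1, with 84.8 to 88.1 CPM unstimulated and 128 to 135 CPM stimulated, at 0.60 (SE 0.11, adjusted p = 0.00317). Differences between the experiments were not tested, since the tables were normalized separately and the groups differed in dose and labels. Calls on Acly, Glud1 and Sdhc were also lost without single libraries, with adjusted p up to 0.0641 (without unstimulated wildtype replicate B), 0.266 and 0.0777 (both without stimulated wildtype replicate B). Of the 41 other pathway genes tested, 0 were higher and 28 lower by the same edgeR test.

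**Figure D3:**
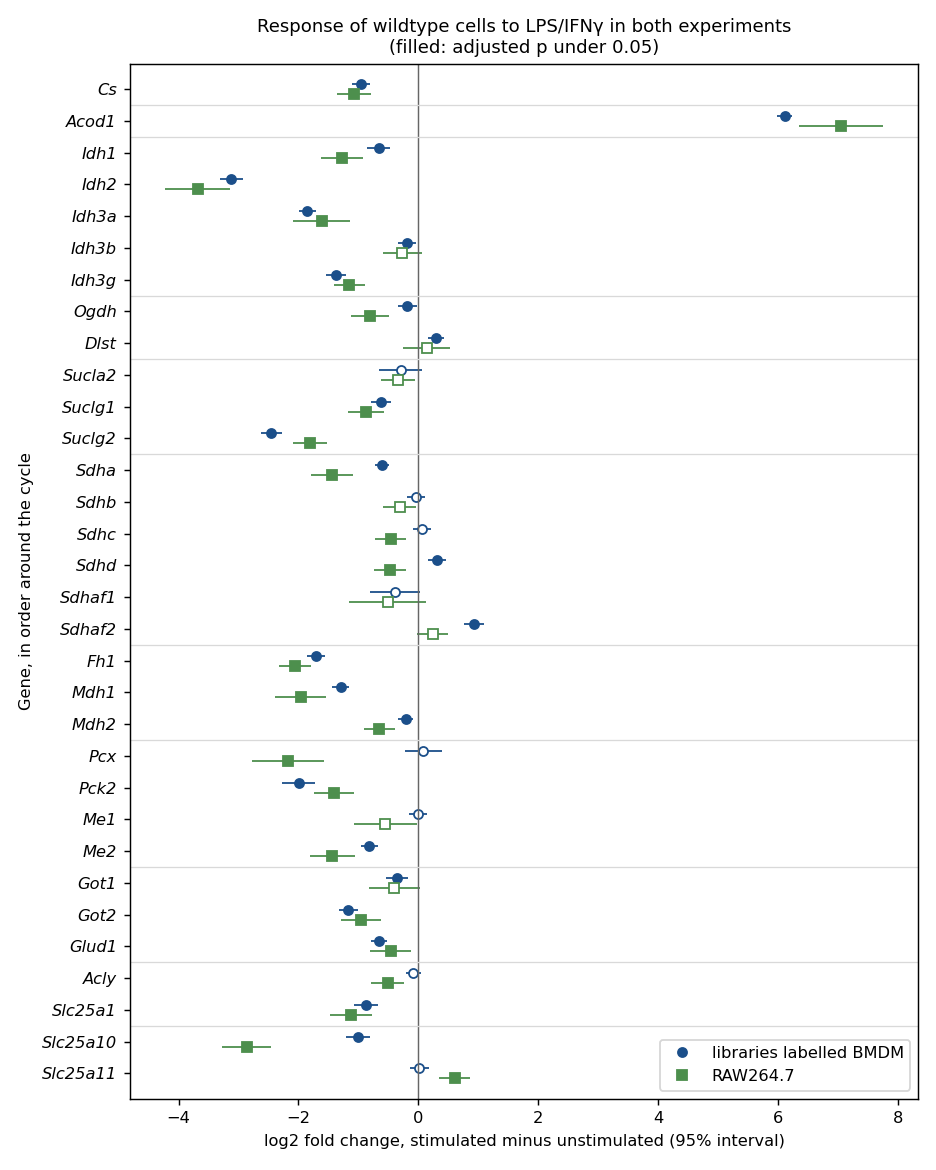
Log2 fold change, stimulated minus unstimulated, of the 32 members in wildtype cells of both experiments, with circles for the libraries labelled BMDM (3 per group) and squares for RAW264.7 cells (2 per group), lines for 95% intervals and filled symbols for an adjusted p under 0.05. Acod1 lies at 6.11 and 7.05 and Idh2 at -3.12 and -3.68, while Pcx lies at 0.08 and -2.17.

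Akr1a1 encodes a reductase of S-nitroso-coenzyme A, and its KO clones received the same stimulation. In stimulated Akr1a1 KO cells against unstimulated ones, 2 members were higher and 26 lower, against 19.8% higher and 19.4% lower of all genes tested, and the median was -1.07 over the members and 0.02 over all genes. The largest changes were in Acod1, from 59.9 and 50.1 to 5729 and 7297 CPM at 6.89 (SE 0.30, adjusted p = 3.07e-06), and in Idh2, from 156 and 138 to 9.04 and 8.48 CPM at -4.07 (SE 0.24, adjusted p = 9.35e-06). Slc25a10 went from 80.0 and 76.4 to 10.6 and 14.3 CPM, Pcx from 64.3 and 42.9 to 10.4 and 7.03 CPM, Suclg2 from 131 and 141 to 23.6 and 22.5 CPM and Mdh1 from 380.1 and 376 to 73.9 and 68.3 CPM, with log2 fold changes of -2.65, -2.62, -2.56 and -2.41. All 4 were lower in both stimulated libraries than in both unstimulated ones. Between these groups 31 of the 32 members had no overlap, again without a background over all genes. Proliferation markers fell here as well, with all 12 lower and summed levels of 3911 to 3995 CPM unstimulated against 57.6 to 77.5 CPM stimulated, and their part was not tested. The calls on Acly, Idh3b, Me1, Sdhaf1, Sdhd and Slc25a11 were lost without single libraries, with adjusted p up to 0.214 (Acly, without unstimulated Akr1a1 KO replicate A), 0.0645 and 0.123 (Idh3b and Sdhd, without unstimulated Akr1a1 KO replicate B), 0.0591 (Me1, without stimulated Akr1a1 KO replicate A), 0.133 (Sdhaf1, without stimulated Akr1a1 KO replicate B) and 0.149 (Slc25a11, without unstimulated Akr1a1 KO replicate B). Of the 41 other pathway genes, 0 were higher and 27 lower.

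Between genotypes after stimulation, Idh1 was the only member called, lower in Akr1a1 KO cells, with 0 members higher. Of all genes tested, 0.0869% were called higher and 0.199% lower, and the median was -0.14 over the members and 0.01 over all genes. Groups did not overlap for 15 of the 32 members, most of them not called, and overlap was not counted over all genes. Idh1 measured 145 and 111 CPM in stimulated wildtype and 45.6 and 48.1 CPM in stimulated Akr1a1 KO cells, at -1.45 (SE 0.15, adjusted p = 0.00997). The groups did not overlap, but the call was lost without stimulated Akr1a1 KO replicate A (adjusted p = 0.129) or B (0.0996) and when only the 2 groups compared were fitted (0.0507). At an unadjusted p under 0.05, 0 members were higher and 7 lower, and DESeq2 called Idh1 and Suclg2. Suclg2 differed by -0.57 (95% interval -0.86 to -0.28) and Acod1 by 0.11 (95% interval -0.42 to 0.65) in edgeR's fit. The median half-width of the 95% interval was 0.33 on the log2 scale here, against 0.15 in the same comparison of the iNOS experiment.

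Before stimulation edgeR called 0 members between Akr1a1 KO and wildtype cells, against 0.230% higher and 0.353% lower of all genes, with a median of 0.04 over the members and -0.02 over all genes. At an unadjusted p under 0.05, 2 were higher and 1 lower, and DESeq2 called 2: Pck2 at 0.68 (adjusted p = 0.0195) and Idh1 at -0.62 (adjusted p = 0.0280). Idh1 measured 328 and 291 CPM in unstimulated wildtype and 196 and 203 CPM in unstimulated Akr1a1 KO cells, without overlap, and edgeR gave it -0.63 (95% interval -0.97 to -0.29). In this comparison 17 of the 32 members had no overlap, and edgeR called 0. Overlap over all genes was not counted here either. The interaction of genotype and stimulation was called for 0 members by edgeR and 0 by DESeq2, against 0.00511% of genes above 0 and 0.0153% below, with a median of -0.31 over the members and 0.03 over all genes. At an unadjusted p under 0.05, 0 members were above 0 and 4 below. Among the 41 other pathway genes edgeR called 0 in each of these 3 comparisons.

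**Figure D4:**
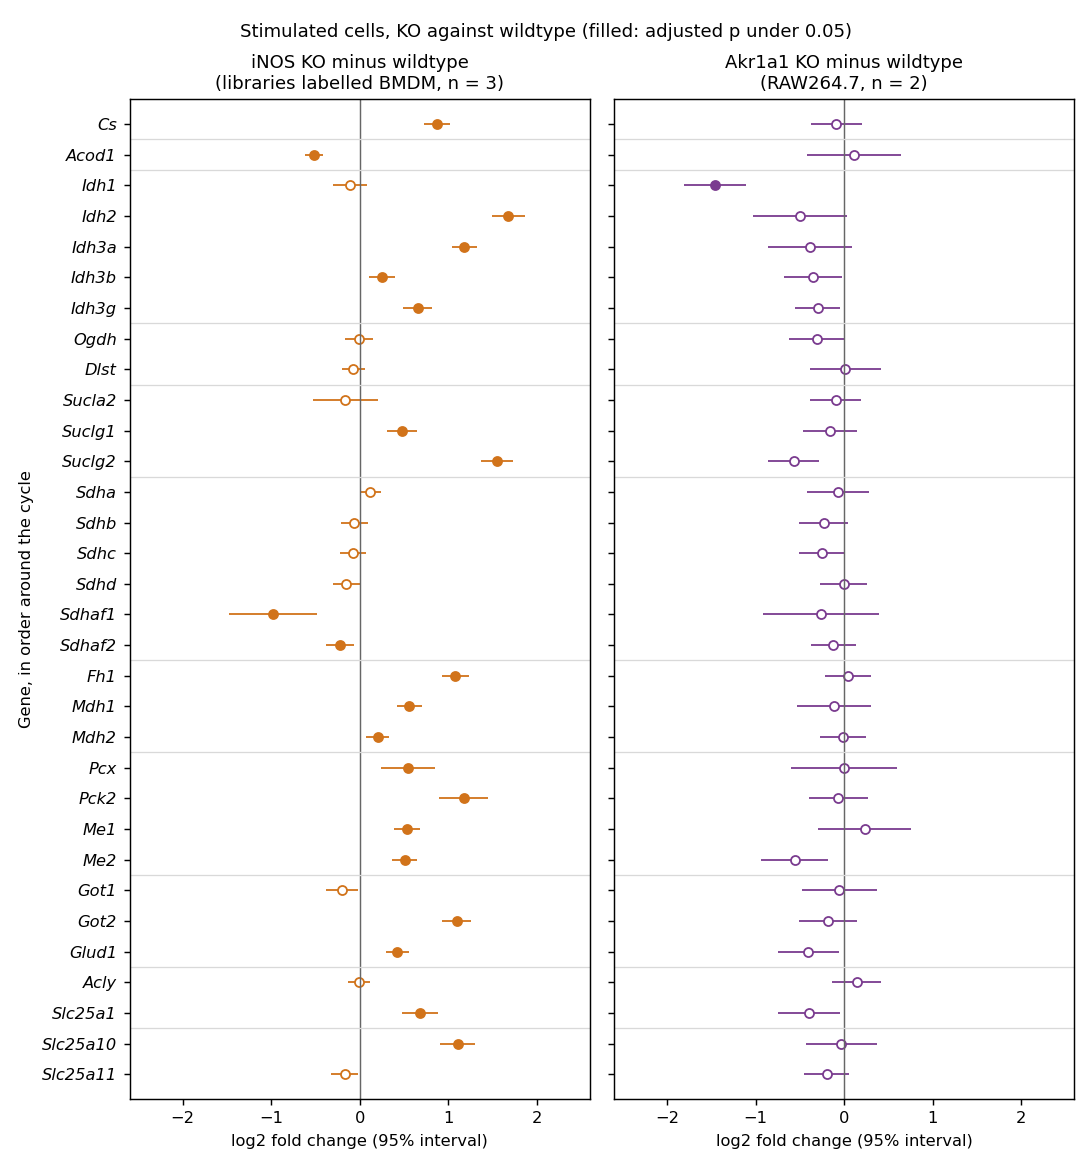
Log2 fold change between genotypes in stimulated cells for the 32 members, with iNOS KO minus wildtype in the libraries labelled BMDM on the left (3 libraries per group) and Akr1a1 KO minus wildtype in RAW264.7 cells on the right (2 per group), lines for 95% intervals and filled symbols for an adjusted p under 0.05. On the left 18 members are called above 0 and 3 below, and on the right Idh1 alone is called, at -1.45.

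Several members share sequence with neighbours on the opposite strand, and whether the counting used strand was not given in the sources used here. Pcx overlaps Lrfn4, which had 111% of the counts of Pcx in the libraries labelled BMDM and changed by -2.84 on the log2 scale when wildtype cells were stimulated, and 68.4% of them in RAW264.7 cells, where Lrfn4 changed by -2.56. In iNOS KO cells Lrfn4 changed by -1.20 on stimulation. Sdhaf2 overlaps Cpsf7 (158% of its counts, log2 fold change 0.18) and Slc25a11 overlaps Rnf167 (12.1%, 0.77) in the libraries labelled BMDM. For these 3 members reads of the pair could not be told apart. Idh3b and Nop56 share 5 bases at their ends, and Mdh1 and Wdpcp 133.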

How the data were processed

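Poly-A RNA-seq libraries were analysed from 2 tables of gene counts, 1 per experiment. The authors deposited raw counts per gene for each library and a column of gene length (other, used only for CPM per kb). Per the labels and methods, reads were processed with CASAVA and aligned with STAR to mm10. Tool versions and the use of strand were not given in the sources used here, and the tables name no build. Groups were taken from the treatment and genotype labels, with 3 libraries per group labelled BMDM and 2 per RAW264.7 group.

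Counts were filtered at 10 in total, leaving 18691 genes in the BMDM table and 19569 in the RAW264.7 table, scaled by TMM and fitted in edgeR 4.0.16 (R 4.3.3) with all 4 groups of an experiment in 1 quasi-likelihood model, separately for each table. P-values were adjusted by Benjamini-Hochberg over all genes tested, and genes were called at an adjusted p under 0.05 with no limit on fold. CPM was computed from TMM-scaled library sizes. Library totals were 15072109 to 18878107 and 11876719 to 44583327 counts, and intervals at the 95% level come from the fit. Values in every library were given for Acod1, for the 8 members with the largest absolute log2 fold change among those called in each of 3 BMDM comparisons (wildtype stimulation, genotypes after stimulation, interaction) and for the 5 with the largest over the RAW264.7 comparisons, and up to 4 other pathway genes per comparison were named by the same measure. The members and lists were chosen with earlier results of these data known.

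Alternatives were DESeq2 1.42.0, its size factors, other filters, protein-coding genes alone, a log2 limit of 1, fits of only the groups compared, a replicate block, and each library left out. Same-letter libraries labelled BMDM did not deviate together throughout (r from -0.52 to 0.50), so letters were not taken as pairs. Within genotype, r for replicates A, B and C was 0.40, 0.50 and 0.12 in iNOS KO and -0.13, -0.26 and 0.08 in wildtype libraries. On simulated counts in the BMDM design, the fit recovered 97 of 100 genes changed by 1 on the log2 scale, and in the RAW264.7 design 40 of 100. The changed genes were chosen among well-counted ones, and counts were drawn at the spread that the model had fitted. Promoter sequences came from RefSeq on GRCm38.p6. Some items on the lists are not reported here.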

Additional observations from a re-analysis of the deposited data

Results flagged for a closer look

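For 20 members of the libraries labelled BMDM the response to stimulation differed between genotypes by the interaction term in edgeR's quasi-likelihood test, given here as the log2 response in iNOS KO cells minus that in wildtype cells (3 libraries per group). It was above 0 at the entry of the cycle and in isocitrate oxidation, for Cs (0.93), Idh2 (1.75), Idh3a (1.21), Idh3b (0.39) and Idh3g (0.75), and for the itaconate enzyme Acod1 (0.49). In the middle of the cycle it was above 0 for Suclg1 (0.55), Suclg2 (1.50) and Sdha (0.22) and below 0 for the assembly factors Sdhaf1 (-0.82) and Sdhaf2 (-0.36). From fumarate onward it was 1.24 for Fh1, 0.65 for Mdh1 and 0.34 for Mdh2. Among enzymes that feed or drain the cycle it was 1.79 for Pck2, 0.65 for Me2, 1.08 for Got2 and 0.49 for Glud1, and for the carriers 0.95 for Slc25a1 and 1.41 for Slc25a10. Of these calls, 17 held in each of 12 fits that left out 1 library, and those on Sdha, Sdhaf1 and Sdhaf2 did not. The level of Acod1 was lower in iNOS KO than in wildtype cells, both unstimulated (-1.01) and stimulated (-0.52).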

How the results depend on the processing

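Counts are of the 32 members called. With a log2 limit of 1, counts fell to 10 (from 24) for stimulation of wildtype and 3 (from 21) of iNOS KO cells labelled BMDM, 7 (from 21) between genotypes after and 1 (from 4) before stimulation and 7 (from 20) for the interaction, and to 15 (from 24) for stimulation of wildtype RAW264.7 cells. Fitting only the groups compared called 11 between iNOS KO and wildtype cells before stimulation and 0 between Akr1a1 KO and wildtype cells after it. Between Akr1a1 KO and wildtype cells, DESeq2 called 2 after and 2 before stimulation, and a minimum of 1 count in total called 3 and 3. Leaving out 1 library gave 2 to 11 between iNOS KO and wildtype cells before stimulation and 0 to 2 between Akr1a1 KO and wildtype cells after it. No direction was reversed, and DESeq2's size factors shifted the median of all genes by at most 0.07.

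With the replicate letter as a block, 24, 21, 22, 4 and 20 members were called in the 5 comparisons labelled BMDM in the order of the report, and 24, 27, 1, 0 and 0 in RAW264.7 cells. In RAW264.7 cells same-letter libraries of 1 genotype had r of 0.10 to 0.44, but with 2 letters this rests on 1 independent value per genotype, so pairing was not established there or in the libraries labelled BMDM. With the replicate block nested in genotype, 26, 29 and 0 members were called for stimulation of wildtype and Akr1a1 KO cells and the interaction, with Me1 (adjusted p = 0.0242) and Got1 (0.0401) added in wildtype cells and Got1 (0.0154) in Akr1a1 KO cells. Causes of these changes were not tested, apart from the limit on fold, which removes smaller changes by construction. RAW264.7 groups had fewer libraries (2 against 3) and a higher common dispersion (0.0522 against 0.00845), and their parts in the wider intervals cannot be told apart.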
